A study of Mus musculus with 4 samples.

Results

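Dazl, Ddx4, Dnd1 and Nanos3 encode RNA-binding proteins of the germline, and they are 4 of the 19321 gene symbols measured in gonads of XX mouse embryos of the C57BL/6 strain. Gonads were taken on each of 4 days of embryonic development, E11.5 to E14.5, and were dissociated and profiled by droplet single-cell RNA sequencing from the 3′ end of transcripts (10x Chromium, version 2 chemistry), with 1 library per stage. No genotype or treatment is given in the labels, and the number of embryos pooled in a library is not stated. A germ cell was taken as a cell with UMIs (unique molecular identifiers, each standing for 1 captured RNA molecule) of at least 2 of the 5 genes Mael, Dppa5a, Mov10l1, Rhox9 and Rhox6, none of which is among the 4 genes described. By this rule 4474 of 18970 cells kept were germ cells, and the 4 libraries held 375, 751, 866 and 2482 of them in stage order, from E11.5 to E14.5. The remaining 4419, 3986, 3880 and 2211 cells, with UMIs of 0 or 1 of those genes, are called other cells.

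Each stage is a single library, so the stage and the library cannot be told apart. Stages were compared without a test or p-value. Levels are the summed UMIs of all cells in a class, expressed as CPM (counts per 1000000 UMIs of that class), with exact Poisson 95% intervals. The interval of a ratio between sums is that of the exact binomial split of their UMIs, and for shares of cells the Clopper-Pearson 95% interval is used. All of these cover counting error only, and say nothing of the variation between embryos. A 3′ count was not scaled by transcript length, so levels are compared between cells and stages for 1 gene at a time.

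The 4 genes were placed on the build named in the submitters' processing notes, mm10 (GRCm38), with the GENCODE M21 annotation. Dazl lies at chr17:50279395-50293636, Ddx4 at chr13:112598333-112652475, Dnd1 at chr18:36763671-36766214 and Nanos3 at chr8:84173731-84185217, all on the minus strand. The last 140 annotated bases of Dnd1 overlap the end of Wdr55 (chr18:36760220-36763810), which runs on the plus strand. Whether counting used the strand is not given in the sources used here, so reads from this overlap cannot be assigned to 1 of the genes. Nanos3 has 3 annotated transcripts. Both coding transcripts start at position 84176552, and the noncoding one starts farther upstream with an exon at chr8:84185026-84185217. The noncoding transcript ends in the exon that both coding transcripts end in, up to position 84173972, so counts from the 3′ end do not separate them. The microRNA genes Mir181c and Mir181d (chr8:84178873-84178961 and chr8:84178716-84178787) lie between these starts.

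In the fetal ovary, primordial germ cells that have colonised the gonad stop expressing their early program and enter meiosis. All 4 proteins act on RNA after it is transcribed. DAZL binds U-rich stretches in the untranslated 3′ part of its target mRNAs and promotes their translation, and germ cells need it to become competent for sexual differentiation. DDX4, the mouse homologue of Drosophila Vasa, is a DEAD-box RNA helicase of germ granules. DND1 and NANOS3 belong to the early program: germ cells are lost without either, and NANOS proteins partner with Pumilio proteins and bring the CCR4-NOT deadenylase, which shortens poly(A) tails, to bound mRNAs.

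Promoter sequence is shown for Dazl, Ddx4 and Nanos3, which differ in CG content there. Dnd1, which was lower at E14.5, was not searched. Whether CG content goes with the change in level was not tested. RefSeq entries (GRCm38.p6, 250 bases before to 50 after a gene's start) were used for 3 of the genes: Dazl, Ddx4 and Nanos3. The 300-base window of Dazl holds 28 CG dinucleotides, more than 85.8% of the 32851 windows in the table. Ddx4 has 38, more than 95.05% of windows. Nanos3 has 3, more than 23.3% of windows, and the median window has 7. The stretches upstream of the first exon follow, read on the minus strand from 5′ to 3′ with every CG in capitals; the Nanos3 stretch lies within the intron of the noncoding transcript.
Dazl, chr17:50293637-50293870: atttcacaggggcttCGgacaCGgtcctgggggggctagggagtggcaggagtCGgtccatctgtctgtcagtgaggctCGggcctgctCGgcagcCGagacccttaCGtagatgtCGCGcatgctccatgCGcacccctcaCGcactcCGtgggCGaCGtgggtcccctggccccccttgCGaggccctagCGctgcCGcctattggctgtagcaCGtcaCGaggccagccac
Nanos3, chr8:84176553-84176802: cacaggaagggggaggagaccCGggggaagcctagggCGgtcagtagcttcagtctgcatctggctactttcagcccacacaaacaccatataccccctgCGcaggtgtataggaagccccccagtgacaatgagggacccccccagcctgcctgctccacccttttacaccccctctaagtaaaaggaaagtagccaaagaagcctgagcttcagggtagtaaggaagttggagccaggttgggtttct
These stretches hold 19 CG dinucleotides in 234 bases for Dazl and 3 in 250 bases for Nanos3.

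A pair of short motifs of germline gene promoters was searched on both strands of the 3 windows: the E-box CACGTG, bound by MAX-MGA dimers, and GCGGGAA, a form of the E2F site. They do not overlap each other. CACGTG is in 7.15% of all windows and GCGGGAA in 4.60%. The Ddx4 window holds 1 of each, and the windows of Dazl and Nanos3 hold 0. Both matches lie in the annotated first exon of a Ddx4 transcript, and each is shown in capitals within 30 bases of the minus strand.
Ddx4, chr13:112652322-112652351: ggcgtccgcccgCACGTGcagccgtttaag
Ddx4, chr13:112652428-112652457: ccgtccatgggGCGGGAAgtcgcgcgccgc
A match describes the letters only, and binding was not measured here.

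Libraries held 4787 to 4916 cells and 69458291 to 80377418 UMIs, with a median of 11361 to 14258 UMIs per cell. Germ cells were deeper than other cells, and least so at E14.5: in stage order their median was 28073, 26876, 23717 and 15464.5 UMIs, against 13858, 12149.5, 10466 and 10306 in other cells. Pairs of libraries shared 19 to 36 cell barcodes, and 0 to 2 germ cell barcodes.

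The germ cell label was checked against Dppa3, Pou5f1 and Tfap2c, genes of primordial germ cells that the rule does not use. In other cells they stood at 0.221% to 1.74% of their germ cell level at the 4 stages. Gtsf1, also outside the rule, had 0 UMIs in other cells at E11.5. It stood at 1.06%, 2.07% (0.746 to 4.62) and 1.10% of its germ cell level at E12.5, E13.5 and E14.5. Cells with exactly 2 of the 5 genes mostly did not match the label. There were 91, 82, 115 and 112 of them in stage order (24.3%, 10.9%, 13.3% and 4.51% of germ cells). In them Dppa3 reached 7.64, 14.4, 12.2 and 16.6 CPM, against 835, 763, 620 and 479 CPM in germ cells with at least 3 of the genes. Dppa3 in other cells was at 3.43, 3.83, 5.68 and 6.86 CPM. The 5 supporting-cell markers summed to 379, 484, 654 and 205 CPM in the exactly-2 cells, beside 335, 496, 586 and 372 CPM in other cells. Germ cells with at least 3 genes had 25.2 to 31.9 CPM of these markers. Haemoglobin genes summed to 1139, 42130, 14863 and 20740 CPM in the exactly-2 cells in stage order, and to 2520, 1650, 1436 and 4434 CPM in germ cells with at least 3 genes, so they were lower in the exactly-2 cells at E11.5 and higher at the other 3 stages. Results are therefore also given for the 284, 669, 751 and 2370 germ cells with at least 3 of the genes, called the stricter set.

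Dazl and Ddx4 increased in germ cells over the 4 stages, Nanos3 decreased, and Dnd1 was near 1 level until E13.5 and lower at E14.5. In stage order, Dazl stood at 50.2 CPM (46.0 to 54.7), 256 (249 to 263), 461 (452 to 470) and 850 (841 to 858). No 2 of these intervals overlap, and the first day had the largest step, 5.09-fold. In the stricter set the levels were 58.0, 272, 504 and 882 CPM. From E11.5 to E14.5 the log2 ratio was 4.08 (3.96 to 4.21), a 16.9-fold difference, and 3.93 in the stricter set.

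Ddx4 followed the same order of stages with smaller steps. Its levels were 37.2 CPM (33.5 to 41.1), 84.8 (80.9 to 88.8), 125 (120 to 130) and 216 (211 to 220). Each stage was again above the one before, by 2.28-fold, 1.47-fold and 1.73-fold. The log2 ratio from E11.5 to E14.5 was 2.54 (2.39 to 2.69), and 2.39 (2.24 to 2.54) in the stricter set.

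Dnd1 stood at 134 CPM (127 to 141), 150 (145 to 155), 138 (133 to 143) and 92.0 (89.1 to 94.96) over the 4 stages. The intervals of E11.5 and E13.5 overlap, and E14.5 is below all 3 earlier stages. The E12.5 level is above E11.5 by all germ cells, but in the stricter set the levels of the first 3 stages were 155 (147 to 163), 159 (154 to 165) and 151 (146 to 157), whose intervals overlap, before 95.9 (92.9 to 99.0) at E14.5. From E13.5 to E14.5 the log2 ratio was −0.59 (−0.65 to −0.52), and −0.66 (−0.73 to −0.59) in the stricter set. From E11.5 to E14.5 it was −0.54 (−0.63 to −0.45), and it turned to 0.61 when germ cells were taken from 1 rule gene up. That set takes in cells counted here as other cells, 1162 beside 375 germ cells at E11.5 and 625 beside 2482 at E14.5. All other cells together had Dnd1 at 4.30 and 6.02 CPM at these stages.

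Nanos3 had the lowest UMI counts of the 4 genes, 330 to 642 UMIs per stage in germ cells. Its levels in stage order were 31.9 CPM (28.6 to 35.6), 30.7 (28.3 to 33.1), 21.8 (19.8 to 23.9) and 9.08 (8.19 to 10.0). The first pair of stages did not differ beyond counting error, and both later stages were below every earlier one. The log2 ratio from E11.5 to E14.5 was −1.81 (−2.03 to −1.60), a 3.52-fold lower level, and −1.93 (−2.15 to −1.71) in the stricter set. Most of that difference fell in the last day, with a log2 ratio of −1.26 (−1.46 to −1.06) from E13.5 to E14.5.

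**Figure D1:**
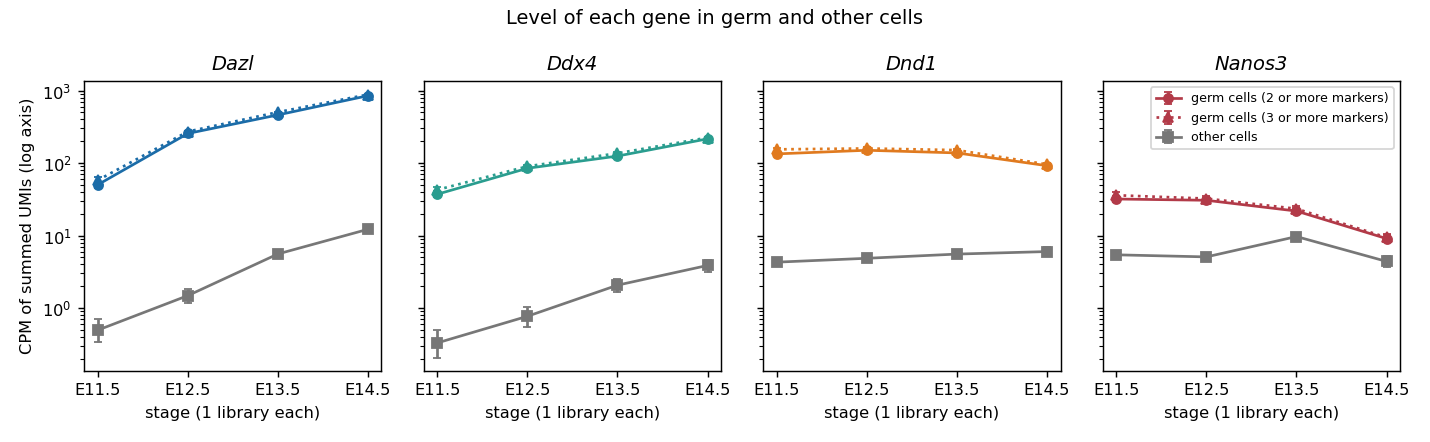
Level of Dazl, Ddx4, Dnd1 and Nanos3 (CPM of summed UMIs, log axis) at the 4 stages, 1 library each, in germ cells (circles), germ cells with at least 3 of the 5 rule genes (triangles) and other cells (grey squares); bars are exact Poisson 95% intervals. Dazl goes from 50.2 to 850 CPM in germ cells and Nanos3 from 31.9 to 9.08 CPM, where it comes closest to other cells at 4.40 CPM.

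A rule of size was applied to every gene. It asks for a total of 50 UMIs in the pair of libraries and 20 CPM in one of them, and a gene past these minimums counts as changed when its levels differ 2-fold or more with Poisson intervals that do not overlap. Between E11.5 and E12.5, Dazl and Ddx4 were higher by this rule, as were 1.91% of the 5086 genes past the minimums. Between E12.5 and E13.5 none of the 4 genes passed, where 1.21% of 5202 genes did in either direction. Between E13.5 and E14.5 Nanos3 was lower, with 2.4% of 5669 genes. Over the whole span from E11.5 to E14.5, Dazl and Ddx4 were higher, with 19.2% of 5837 genes, and Nanos3 was lower, with 9.13%. Dnd1 passed in none of these comparisons. The log2 ratios of Dazl and Ddx4 from E11.5 to E14.5 were at percentile 99.2 and 97.3 of the tested genes, Dnd1 at 19.2 and Nanos3 at 2.45.

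The whole-span calls were 1123 higher and 533 lower by CPM. On a median-of-ratios scale, which moves all log2 ratios of that span by −0.19, they were 795 higher and 719 lower. The median gene was at 0.20 on the CPM scale. The log2 ratios on the median-of-ratios scale were 3.89 for Dazl, 2.35 for Ddx4, −0.73 for Dnd1 and −2.0003 for Nanos3, so no direction changed.

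To compare single cells at 1 depth, every cell was reduced to 2000 randomly drawn UMIs (thinning), and 0 cells fell below that depth. The share of germ cells with a Dazl UMI was then 9.33% (6.59 to 12.7), 35.4% (32.0 to 39.0), 53.0% (49.6 to 56.4) and 79.7% (78.1 to 81.3) in stage order. Ddx4 was found in 5.33% (3.29 to 8.12), 15.8% (13.3 to 18.7), 20.9% (18.2 to 23.8) and 34.9% (33.1 to 36.8). The shares of both genes were thus higher at each later stage, with intervals that overlap only for Ddx4 at E12.5 and E13.5. A share at this depth follows the level, so it does not tell more expressing cells from more RNA per cell.

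Dnd1 was found in 19.7% (15.8 to 24.1), 23.6% (20.6 to 26.8), 22.7% (19.995 to 25.7) and 15.3% (13.95 to 16.8) of thinned germ cells. Its share at E14.5 is below those at E12.5 and E13.5 and overlaps that at E11.5. In the stricter set E14.5 (16.1%, 14.6 to 17.6) is also below E11.5 (25.4%, 20.4 to 30.8). Nanos3 was found in 5.33% (3.29 to 8.12), 4.66% (3.27 to 6.42), 2.66% (1.69 to 3.96) and 1.25% (0.850 to 1.77), so that E14.5 is below E11.5 and E12.5.

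Without thinning, the shares were 45.3%, 81.5%, 85.8% and 97.0% for Dazl, and 48.8%, 74.6%, 79.9% and 92.9% for Ddx4. They were 72.8%, 86.7%, 79.9% and 55.2% for Dnd1, and 50.1%, 51.7%, 38.1% and 13.1% for Nanos3. These depend on the depth of the germ cells, which was lowest at E14.5. The median cell of the stricter set held 1, 6, 12 and 14 Dazl UMIs in stage order and 1, 2, 3 and 3 of Ddx4. It held 4, 4, 3 and 1 of Dnd1 and 1, 1, 0 and 0 of Nanos3.

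For Dazl, the spread of thinned counts relative to their mean was largest in the middle stages. The variance of its thinned UMIs over their mean, which is 1 for counts that vary by sampling alone, was 1.06, 1.38, 1.40 and 1.23 in stage order. In the stricter set it was 1.03, 1.32, 1.25 and 1.16. For Nanos3 in all germ cells it was 1.20, 1.15, 0.975 and 0.988. This ratio also depends on the mean, which for Dazl was 0.101, 0.507, 0.958 and 1.82 UMIs in all germ cells. It therefore does not rank the stages by variation between cells.

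**Figure D2:**
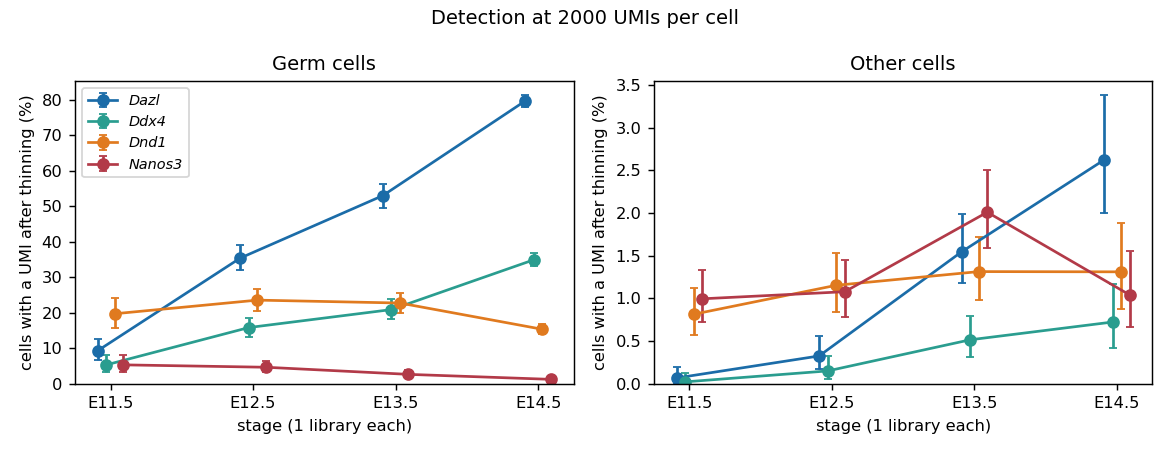
Share of germ cells (left) and other cells (right, a smaller scale) with at least 1 UMI of each gene after thinning every cell to 2000 UMIs, by stage with 1 library each; bars are Clopper-Pearson 95% intervals. Dazl goes from 9.33% to 79.7% of germ cells, and the Nanos3 share at E14.5, 1.25%, is near that of other cells, 1.04%.

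The same counts in other cells give the background for these shares. Dazl was at 0.496, 1.49, 5.57 and 12.2 CPM in other cells, or 0.988%, 0.581%, 1.21% and 1.44% of the germ cell level. Ddx4 was at 0.331, 0.770, 2.07 and 3.87 CPM, or 0.890% to 1.79% of the germ cell level. The levels of both in other cells increased with those in germ cells. Dppa3 in other cells was at 0.476% (0.416 to 0.543), 0.533%, 1.00% (0.885 to 1.14) and 1.49% of its germ cell level. Dazl was above this fraction at E11.5 (0.673 to 1.40) and had overlapping intervals at the later stages. Ddx4 was above it at E11.5 (0.890%, 0.551 to 1.37), E12.5 (0.909%, 0.653 to 1.23) and E13.5 (1.66%, 1.34 to 2.03), and overlapped it at E14.5. This depended on the gene used for comparison. Pou5f1 in other cells was at 0.674% (0.503 to 0.885) at E11.5 and 0.605% (0.440 to 0.811) at E12.5, which overlap both genes. Only Ddx4 at E13.5 was above Pou5f1 (0.989%, 0.764 to 1.26). Tfap2c at E11.5 (0.221%, 0.101 to 0.422) was below both Dazl and Ddx4, and overlapped both at the later stages. Free RNA and germ cells with UMIs of under 2 of the rule's genes were not separated here, and their part was not tested. Thinned other cells had a Dazl UMI in 0.0679%, 0.326%, 1.55% and 2.62%, and a Ddx4 UMI in 0.0226% to 0.724%. Every germ cell share of these genes was above its counterpart.

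Dnd1 in other cells was at 4.30 (3.82 to 4.83), 4.86 (4.29 to 5.48), 5.55 (4.89 to 6.28) and 6.02 CPM (5.15 to 6.99), or 3.21% to 6.54% of the germ cell level. This is a larger fraction than for Dazl at every stage. It was unequal between kinds of other cells, which were told apart by UMIs of at least 3 of 5 markers each. Cells with supporting markers had 6.75, 7.85, 7.42 and 12.3 CPM (9.49 to 15.8), while those with interstitial markers had 2.71, 3.51, 2.86 and 3.69 CPM (2.02 to 6.19). Wdr55, whose annotated end overlaps that of Dnd1, was at 21.9, 17.9, 17.7 and 29.8 CPM in other cells and at 45.3, 33.8, 25.3 and 19.7 CPM in germ cells. Its part in the Dnd1 counts was not tested.

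Nanos3 stood apart in other cells. Its levels there were 5.43 CPM (4.88 to 6.02), 5.08 (4.50 to 5.71), 9.69 (8.81 to 10.6) and 4.40 (3.66 to 5.24), or 17.0%, 16.6%, 44.5% and 48.4% of the germ cell level. Those fractions are far above the 0.476% to 1.49% of Dppa3 in the same cells. The level at E13.5 was above the other 3 stages, by 1.91-fold over E12.5, whereas in germ cells E13.5 was below E12.5.

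The Nanos3 counts of other cells were spread over several kinds. At E13.5 there were 9.35 CPM (7.84 to 11.1) in cells with supporting markers, 10.4 (8.09 to 13.2) with interstitial markers, 10.1 (7.93 to 12.7) with mesothelial markers and 8.71 (5.08 to 13.9) with endothelial markers. At E11.5 the endothelial cells had 0.357 CPM (1 UMI) and the other 3 kinds 5.06 to 6.28 CPM. In immune cells there were 0, 0, 1 and 1 UMIs in stage order, in 39, 13, 31 and 35 cells. Which of the 3 annotated transcripts these reads came from was not tested.

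At E14.5 the thinned Nanos3 share of germ cells, 1.25%, lay within the interval of other cells, 1.04% (0.661 to 1.56), and at E13.5 the shares of 2.66% and 2.01% (1.59 to 2.50) had overlapping intervals. These late shares are therefore not distinguishable from the background at this depth. With all UMIs, 13.1% of germ cells and 5.34% of other cells had a Nanos3 UMI at E14.5, at median depths of 15464.5 and 10306 UMIs. The CPM levels of both classes, 9.08 and 4.40, do not overlap.

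Co-detection was counted in the same thinned germ cells. Germ cells without a UMI of any of the 4 genes made up 67.2% (62.2 to 71.9), 41.8% (38.3 to 45.4), 32.9% (29.8 to 36.2) and 12.8% (11.48 to 14.1) in stage order. The share with 2 of the genes went from 5.60% to 14.9%, 20.3% and 33.0%. The share with 3 or 4 was 0.533% (0.0647 to 1.91), 3.20% (2.06 to 4.72), 5.77% (4.32 to 7.54) and 5.44% (4.58 to 6.41), so that the last pair of stages did not differ beyond counting error. All 4 genes were found in 1, 0, 3 and 2 cells. These counts depend on the depth of thinning. Without thinning, all 4 genes were found in 82 of 375, 293 of 751, 266 of 866 and 265 of 2482 germ cells in stage order. In the stricter set without thinning, 1.76%, 0.448%, 0.799% and 0.211% of cells had none of the 4. Depth without thinning differed between stages and was lowest at E14.5.

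Each share at 2000 UMIs per cell was set beside the product of the single shares within its stage. That product is what detection of each gene independently of the others would give. For 3 or 4 genes the product gave 0.263%, 1.96%, 3.06% and 4.68%. The observed interval lay above it at E12.5 and E13.5, and held it at E11.5 and E14.5. In the stricter set the interval at E12.5, 3.59% (2.31 to 5.29), held the product of 2.66%, and at E13.5 the observed 6.66% (4.98 to 8.68) was above 4.54%. These calls changed with the depth of thinning. At 4000 UMIs per cell the observed 12.4% (10.1 to 14.95) at E12.5 was again above its product, 8.37%, but the interval at E13.5, 16.1% (13.7 to 18.7), held the product of 13.9%. Both stages switched in the stricter set: E12.5 had 13.9% (11.4 to 16.8), above 11.2%, and E13.5 had 18.4% (15.7 to 21.3), which holds 19.96%.

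Among the 6 pairs, Dazl with Ddx4 was the most frequent at E14.5, in 29.5% (27.7 to 31.3) of thinned germ cells against a product of 27.8%. At E12.5 the pair was in 8.12% (6.27 to 10.3), above the product of 5.61%, and in the stricter set in 9.12% (7.05 to 11.6) against 7.02%. At E13.5 it was in 13.7% (11.52 to 16.2) against 11.1%, and in the stricter set in 15.7% (13.2 to 18.5), which holds the product of 14.4%. Cells with a Dazl UMI at E12.5 had a Ddx4 UMI in 22.9% (18.0 to 28.5), and cells without one in 11.96% (9.21 to 15.2).

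Dnd1 was found with the genes that increased about as often as the product at most stages. Dazl with Dnd1 was in 2.67%, 9.45%, 14.6% and 12.53% of thinned germ cells, with products of 1.84%, 8.35%, 12.1% and 12.2%, and only at E13.5 (12.3 to 17.1) was the product below the interval. In the stricter set at E13.5 that pair was in 16.8% (14.2 to 19.6), which holds the product of 15.8%. Ddx4 with Dnd1 at E13.5 was in 6.93% (5.33 to 8.83) against 4.75%, and in the stricter set in 7.99% (6.15 to 10.2), which holds the product of 6.22%. Pairs with Nanos3 were rare at this depth, at 1 to 24 cells per stage. The lowest was Ddx4 with Nanos3 at E12.5, in 1 cell (0.133%, 0.00337 to 0.740), with a product of 0.738%.

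The ratio of observed share to product was thus closer to 1 in the stricter set for each of these pairs with an excess at 2000 UMIs. At 4000 UMIs the intervals of the stricter set held the product for Dazl with Ddx4, Dazl with Dnd1 and Ddx4 with Dnd1 at all 4 stages, including Dazl with Ddx4 at E12.5 (19.4%, 16.5 to 22.6, against 16.6%). In all germ cells at that depth Dazl with Dnd1 was above its product at E12.5 too (24.8%, 21.7 to 28.0, against 20.7%), and Ddx4 with Dnd1 at E13.5 (15.1%, 12.8 to 17.7) held its product of 14.6%. Of the pairs with Nanos3, only Dnd1 with Nanos3 at E14.5 was above its product in the stricter set at 4000 UMIs, in 1.35% (0.925 to 1.90) against 0.838%. At 2000 UMIs it was in 0.211% (0.0685 to 0.492), which holds the product of 0.210%, and without thinning in 11.8% (10.5 to 13.1) against 7.77%. What else the co-detection moved with was not tested.

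**Figure D3:**
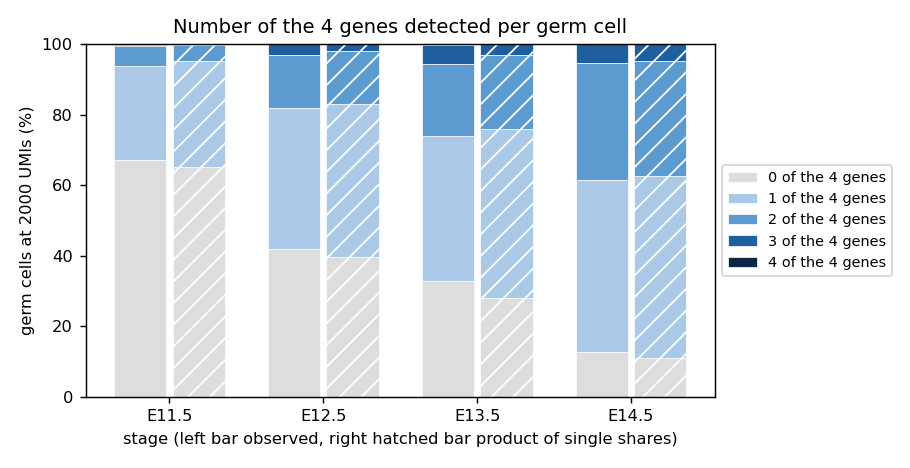
Share of germ cells with a UMI of 0 to 4 of the genes Dazl, Ddx4, Dnd1 and Nanos3 at 2000 UMIs per cell, by stage with 1 library each; left bars are observed and right hatched bars are the product of the single shares. The share with none is 67.2% at the first stage and 12.8% at the last, beside hatched bars of 65.2% and 11.05%.

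Germ cells of 1 library were then split by a thinned UMI of Stra8, which retinoic acid induces and which starts the meiotic program, and of Sycp3, a component of the synaptonemal complex. In stage order, 97.9%, 94.8%, 76.8% and 22.2% of germ cells had neither. A cell without a UMI at this depth may still express the gene. The cells of a split share their library, so the intervals are for counting error, and the split compares cells of 1 stage without a stage difference.

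At E14.5 Dnd1 was lower in cells with either gene or both than in cells with neither. It was at 148 CPM (141 to 156) in the 552 cells with neither gene, which overlaps the E12.5 level of all germ cells. It was at 91.6 CPM (86.9 to 96.5) in 918 cells with Stra8 only, 91.1 (79.4 to 104) in 147 with Sycp3 only and 43.7 (40.2 to 47.5) in 865 with both. The log2 ratio of both against neither was −1.76 (−1.90 to −1.62), and −1.96 (−2.10 to −1.82) in the stricter set, where the cells with neither had 171 CPM (163 to 180). At E13.5 the 22 cells with both were also lowest by CPM, at 86.2 CPM (61.0 to 118, from 38 UMIs), against 141 (135 to 146) in the 665 with neither. Their thinned shares at E13.5 were 22.73% with both and 22.71% with neither, and the lowest share was 16.7%, with Sycp3 only.

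Nanos3 had the same order at E14.5, with 16.1 CPM (13.9 to 18.7) in cells with neither gene, 8.32 (6.96 to 9.88) with Stra8 only, 7.55 (4.48 to 11.9) with Sycp3 only and 4.16 (3.12 to 5.44) with both. The level in cells with both is within counting error of that in other cells, 4.40 CPM (3.66 to 5.24). The log2 ratio of both against neither was −1.96 (−2.43 to −1.51). Cells with neither gene had 31.1, 31.0, 22.8 and 16.1 CPM in stage order, so that Nanos3 was lower at E14.5 within them too, unlike Dnd1, which was at 134, 149, 141 and 148 CPM in cells with neither.

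Dazl and Ddx4 had the opposite order. At E14.5 Dazl was at 658 CPM (643 to 673) in cells with neither gene, 847 (833 to 861) with Stra8 only, 965 (926 to 1005) with Sycp3 only and 999 (981 to 1016) with both. Ddx4 was at 162 (154 to 169), 229 (221 to 236), 233 (214 to 253) and 244 CPM (235 to 252). The log2 ratio of both against neither was 0.60 (0.56 to 0.64) for Dazl and 0.59 (0.51 to 0.68) for Ddx4. In the stricter set these were 0.39 (0.35 to 0.43) and 0.38 (0.30 to 0.47), where 462 of the 552 cells with neither gene remained. In cells with neither gene, Dazl was at 50.3, 252, 409 and 658 CPM in stage order, so its level differed between stages also where Stra8 and Sycp3 were not found.

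Depth differed between these cells, with a median of 18668 UMIs in E14.5 cells with neither gene and 13842 in those with both. CPM takes depth into account, and the thinned shares differed in the same direction between cells with neither gene and with both. Dnd1 was found in 26.1% and 8.21% of these cells, Dazl in 66.3% and 85.5%, Ddx4 in 30.1% and 38.8%, and Nanos3 in 2.36% and 0.462%. With Sycp3 only, the thinned shares did not keep the CPM order for Ddx4 (29.3%), Dazl (85.7%) and Nanos3 (1.36%, beside 1.31% with Stra8 only).

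**Figure D4:**
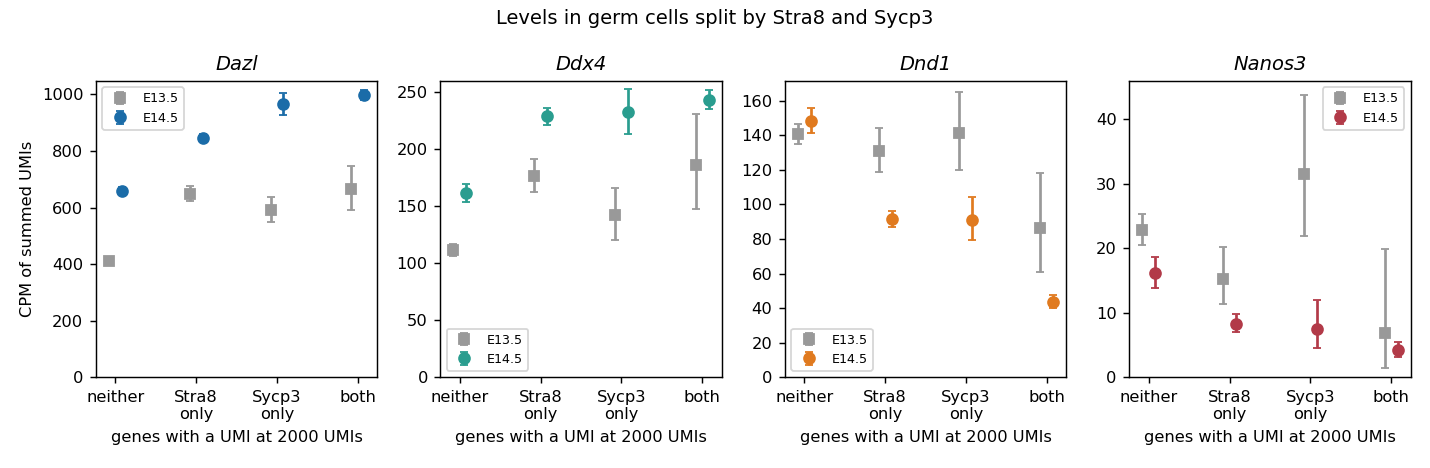
Level of each gene (CPM of summed UMIs) in germ cells split by a UMI of Stra8 and of Sycp3 at 2000 UMIs per cell, at E13.5 (grey squares) and E14.5 (coloured circles), 1 library each; bars are exact Poisson 95% intervals. At E14.5 Dnd1 goes from 148 CPM with neither gene to 43.7 CPM with both, while Dazl goes from 658 to 999 CPM.

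A split by UMIs of the proliferation genes Mki67 or Top2a moved the 4 genes less. At E14.5 Dnd1 was at 82.9 CPM (79.3 to 86.8) with and 103 (98.4 to 108) without them, and Dazl at 837 (825 to 849) and 865 (852 to 879). Ddx4 (214 and 218 CPM) and Nanos3 (8.41 and 9.89 CPM) had overlapping intervals.

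Partners, family relatives and reported targets of the 4 proteins, germ granule and piRNA genes, and other RNA regulators were followed in 5 lists. Levels were compared between E11.5 and E14.5 in germ cells, and read against the 19.2% of genes called higher and 9.13% called lower. Of 11 genes listed for the CCR4-NOT deadenylase, which NANOS proteins recruit, 10 passed the minimums, 2 were higher and 0 lower. Cnot4, a ubiquitin ligase, was at 36.3 and 105 CPM (log2 ratio 1.54), and Cnot6l, a catalytic deadenylase, which passed the minimum of 20 CPM only through E14.5, at 12.8 and 43.2 CPM (1.76). In other cells Cnot4 was at 45.4, 67.3, 45.5 and 66.4 CPM in stage order, beside 36.3, 64.9, 55.1 and 105 CPM in germ cells. Cnot6l was at 20.1 and 24.4 CPM in other cells at E11.5 and E14.5. Cnot1, the scaffold and the most abundant of the list, was at 70.3 and 109 CPM (0.63, 0.52 to 0.75). The median log2 ratio of the 10 was 0.29, beside 0.20 over all genes tested.

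Among 8 Pumilio genes and relatives of the 4 families, 5 passed the minimums, 2 were higher and 0 lower, with a median of 0.34. Rbm46, an RNA-binding protein of the germline, was at 22.6 and 102 CPM (log2 ratio 2.18), and Ddx25, a helicase known from spermatogenesis, which passed the minimum only through E14.5, at 7.06 and 45.9 CPM (2.70). Pum2, a partner of NANOS proteins, was at 44.5 and 56.5 CPM. Ddx3x, a helicase found in most cells, was at 128 and 132 CPM. Of the closest relatives of the members, Nanos2 had 0 UMIs at E11.5 and reached 0.143 CPM at E14.5, and Boll, of the DAZ family, was at 0.774 and 14.9 CPM, under the minimum of 20 CPM.

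The germ granule and piRNA list had 15 genes, of which 8 passed the minimums, all 8 were higher and 0 lower. A gene that passed only through its E14.5 level had to be higher, so the whole list is given too: the interval of the log2 ratio was above 0 for 12 genes, held 0 for Tdrd12 (−0.19, −0.43 to 0.05), and could not be had for Tdrd6 and Henmt1, which had 0 UMIs at E11.5. Tdrd7, a Tudor-domain protein of germ granules, was at 0.871 and 20.3 CPM (4.54), and the helicase gene Mov10l1 at 13.55 and 105 CPM (2.96). Mael, a piRNA pathway gene, was at 15.9 and 228 CPM (3.85), Gtsf1, of the same pathway, at 3.39 and 25.6 CPM (2.92), and Asz1 at 14.52 and 49.7 CPM (1.77). Mael and Mov10l1 are 2 of the genes that chose the germ cells. The median of the 8 was 2.35, and that of the 6 without these genes 1.74. Of the 8, 7 passed the minimum of 20 CPM only through E14.5.

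Of 12 other RNA regulators of germ cells, 11 passed the minimums, 5 were higher and 0 lower, with a median log2 ratio of 0.35, or 0.53 with Meioc at its lower bound. Of the 5, 3 (Meioc, Ythdc2 and Cpeb1) passed the minimum of 20 CPM only through E14.5 and so had to be higher. Over the whole list the interval of the log2 ratio was above 0 for 7 genes, below 0 for 3 and held 0 for 1. Meioc, which acts with YTHDC2 to carry germ cells through meiotic prophase, had 0 UMIs in the first library and 97.5 CPM in the last, which is at least 336-fold higher with the first set to a floor of 3 UMIs over its germ cells. Ythdc2 itself was at 6.58 and 50.3 CPM (2.93), Cpeb1, a cytoplasmic polyadenylation factor, at 12.7 and 68.9 CPM (2.44), Ddx6, a helicase of P-bodies, at 25.4 and 52.5 CPM (1.05) and Elavl2 at 57.9 and 119 CPM (1.04). All 5 were higher in other cells too: Meioc at 0.135 and 1.44 CPM, Ythdc2 at 5.98 and 13.7, Cpeb1 at 0.105 and 1.27, and Elavl2 at 2.54 and 3.34. Ddx6 in stage order was at 25.4, 47.6, 36.1 and 52.5 CPM in germ cells and 38.1, 71.1, 40.0 and 60.9 in other cells. The part shared by both classes was not tested. Pabpc1, the main poly(A)-binding protein and the most abundant of the list, was at 453 and 397 CPM (−0.19, −0.24 to −0.14).

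All 6 transcripts of a list that the literature reports as bound by DAZL were higher, with a median of 3.20. Of these, 3 (Sycp1, Sycp3 and Tex11) passed the minimum of 20 CPM only through E14.5 and so had to be higher; the interval of the log2 ratio was above 0 for all 6. Sycp1, of the synaptonemal complex, was at 3.97 and 423 CPM (6.74), Sycp3 at 13.6 and 321 CPM (4.56), Tex11, a meiotic crossover gene, at 2.32 and 31.4 CPM (3.76), Tex14, of the intercellular bridges, at 20.4 and 128 CPM (2.65) and Tex19.1 at 71.4 and 169 CPM (1.24). The sixth is Ddx4 itself. RNA levels do not measure translation, which is where DAZL is known to act.

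**Figure D5:**
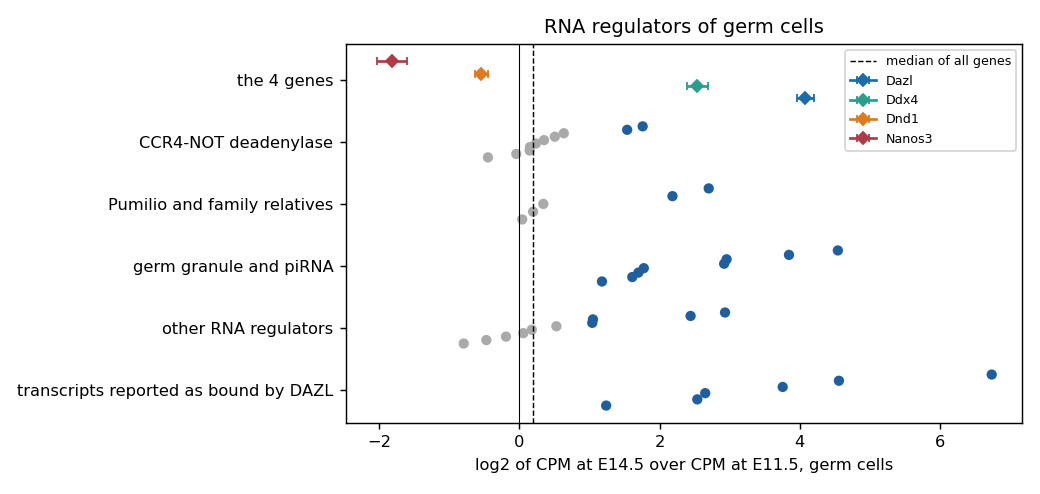
Log2 ratio of CPM at E14.5 over E11.5 in germ cells, 1 library each, for the 4 genes (diamonds with 95% intervals) and for the genes of 5 lists that passed the minimums and had a UMI at both stages (blue higher by the rule of size, grey neither). The dashed line is the median of all genes tested, 0.20, and 7 of the 8 points of the germ granule list passed the minimums only through E14.5.

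The genes whose pattern was most like each of the 4 were found over the 8 sums of germ and other cells at the 4 stages, by the root mean square difference of log2(CPM + 1) centred on its mean, among 13581 genes with at least 50 UMIs in germ cells. For Dazl these were Stk31 (0.47), Smc1b (0.51), a meiotic cohesin subunit, and Ddx4 (0.65). Smc1b was at 47.8, 147, 283 and 1168 CPM in germ cells. For Ddx4 they were the homeobox gene Rhox1 (0.33), Map7d2 (0.39) and Zglp1 (0.42), a zinc finger gene of the oogenic program, the last at 20.4, 59.1, 86.2 and 86.7 CPM.

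For Dnd1 the closest were 4930461G14Rik (0.11), Rbmxl2 (0.14) and Igfbpl1 (0.15). Igfbpl1 was at 39.6, 52.5, 46.9 and 27.7 CPM in germ cells. For Nanos3 they were Adam19 (0.19), Ak1 (0.25) and Platr22 (0.26). Adam19 was at 38.6, 35.0, 27.3 and 13.2 CPM in germ cells and at 6.48, 7.98, 9.80 and 7.04 CPM in other cells, so it too was highest at E13.5 among other cells. The 8 sums share libraries by pairs, and likeness is a description of levels.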

How the data were processed

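Gene expression was measured in single cells of XX gonads in 4 libraries, 1 per stage. Cell Ranger 2.2.0 and the build mm10 are named in the submitters' processing notes; the roles of these, the cell filters and the normalization tool are not given in the sources used here. Each deposited value is a natural log: the authors scaled a gene's UMIs to 10000 UMIs per cell, added 1 and took ln. This was read from the values: all 69792436 values above 0 in 19387 cells (100%) were whole multiples of what 1 UMI is worth, at a relative tolerance of 1e-06, and every cell summed to 10000. The plan had assumed UMI counts, so UMIs were recovered and used throughout.

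Cells with over 20% mitochondrial UMIs (3, 1, 1 and 0 in stage order) and doublets called per library by the Scrublet method in scanpy 1.11.5, with an assumed rate of 0.06 and 2 simulated doublets per cell (120, 105, 95 and 94 cells, or 2.44%, 2.17%, 1.96% and 1.96%), were left out. Sums, ratios and thinning (seed 1) were computed with Python 3.11.15, numpy 2.4.6, scipy 1.17.1 and pandas 2.3.3. The rule of size and the thinning were tested on simulated data. Kinds of other cells were told apart by UMIs of at least 3 of 5 markers each.

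The 4 genes and all lists were chosen with earlier results of these data known. Genes named beside the 4 are, from each list, at most the 5 largest changes past the rule of size between E11.5 and E14.5 and the most abundant gene, and the 3 genes most like each of the 4. Pum2, Nanos2, Boll, Tdrd6, Tdrd12 and Henmt1 were named after their values were seen. Cnot9 is listed in the table under its older symbol Rqcd1. Alternatives covered the germ cell rule, cell filters, thinning, scaling and pseudocounts.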

Additional observations from a re-analysis of the deposited data

Results flagged for a closer look

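A pair of results had opposite directions in germ cells and in other cells of the same libraries. Dnd1 from E11.5 to E14.5 had a log2 ratio of −0.54 in germ cells and 0.49 in other cells. Nanos3 from E12.5 to E13.5 had −0.49 in germ cells and 0.93 in other cells. With 1 library per stage, the difference between the classes was not tested in either case.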

How the results depend on the processing

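With 1 library per stage no library could be left out. No paired analysis was possible because each stage has 1 library and no result comes from a test. The log2 ratio from E11.5 to E14.5 kept its sign under 10 of 10 alternatives for Dazl, Ddx4 and Nanos3 and under 9 of 10 for Dnd1. Taking germ cells from 1 rule gene up adds 1162, 922, 932 and 625 of the other cells to 375, 751, 866 and 2482 germ cells in stage order. The ratios were then 5.28 for Dazl, 3.74 for Ddx4, 0.61 for Dnd1 (reversed) and −0.83 for Nanos3. From 3 rule genes up they were 3.93 for Dazl and −0.69 for Dnd1, and with 2 rule genes after thinning 3.89 for Dazl and 2.36 for Ddx4. On the median-of-ratios scale they were 3.89, 2.35 and −0.73 for Dazl, Ddx4 and Dnd1. As a mean over cells of log2(CPM + 1) they were 6.61, 4.29, −1.27 and −2.08 in the order Dazl, Ddx4, Dnd1 and Nanos3, with a pseudocount of 100 they were 2.74, 1.20, −0.25 and −0.23, and as a mean CPM over cells 4.36, 2.77 and −0.44 for the first 3. The cause of these differences was not tested. The share of E14.5 germ cells with 3 or 4 genes was 14.9% at 4000 UMIs per cell, 55.6% without thinning and 4.35% from 1 rule gene up. Genes higher and lower from E11.5 to E14.5 numbered 2991 and 1343 with no CPM minimum, and 282 and 98 at a ratio of at least 4. Depth limits Nanos3 most, with a median of 0 UMIs per germ cell at E13.5 and E14.5.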
